A study of Mus musculus with 2 samples.

Results

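The weak but reproducible open regions of the mouse adrenal gland are described here: stretches of chromatin that were called accessible in both DNase-seq pools on the longer, more permissive of each pool's 2 deposited peak lists, yet touched no peak of the shorter list of either pool. They were found by merging the longer-list peaks of both pools (1 bp overlap), keeping merged regions that held a peak of each pool, and dropping those that overlapped a shorter-list peak. This left 13218 weak regions, which was 13.7% of the 96584 regions shared by the pools and 8.21% of all 160908 merged regions. They covered 2.64 Mb. The reference throughout is the set of 62486 shared regions with a shorter-list peak in both pools, called clear regions, which covered 17.85 Mb. The remaining 20880 shared regions had a shorter-list peak in 1 pool only. The members were chosen by the authors' peak lists, so their peak signal, false discovery rates and footprints, all from the same libraries, are a description of the choice and not evidence for it, and no test was made.

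DNase-seq maps open chromatin by cutting nuclei with the enzyme DNase I and sequencing the ends it leaves. The study holds 1 group, whole adrenal gland tissue from males of the strain B6CASTF1/J, F1 hybrids between C57BL/6J and CAST/EiJ, at an age of 8 to 10 months, with no treatment given in the labels and no control group. There were 2 biological replicates, each a pool of 6 adrenal gland biosamples sequenced as 1 library, and both carry the same donor identifier, so the spread between them may be smaller than that between animals. A whole gland mixes cortex, medulla, vessels and immune cells, and in such a bulk sample few cells with an open site and a weakly open site in many cells cannot be told apart. Of 8 markers each, the promoters of 7 for cortex, 6 for medulla and 0 for other organs held a clear region, and for other organs all 8 held no peak.

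The adrenal cortex makes steroid hormones from cholesterol under the nuclear receptor NR5A1 (steroidogenic factor 1), while chromaffin cells of the medulla make catecholamines and opioid peptides. Regulatory DNA falls broadly into promoters, many of them rich in CpG dinucleotides and open in most cell types, and distal elements such as enhancers and CTCF-bound insulators, which differ more between cell types. A footprint is a short stretch inside an open region that is cut less than its surroundings, as happens where a protein sits on the DNA.

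The sequences below show what weak regions look like: for each of 5 motifs that the results turn on, the distal weak region of at most 300 bp with the highest mean signal among those whose motif lay under a footprint in both pools. They are reference sequences of the plus strand of mm10, 5′ to 3′, and capitals mark the motif match.

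Intron of Fam222a, NR5A1 motif, chr5:114588019-114588189: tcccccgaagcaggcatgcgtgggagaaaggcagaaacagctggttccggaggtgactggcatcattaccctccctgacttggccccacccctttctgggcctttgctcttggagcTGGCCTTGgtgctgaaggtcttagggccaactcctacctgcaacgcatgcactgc
Between genes near Gm31510, AP-1 motif, chr7:79271057-79271314: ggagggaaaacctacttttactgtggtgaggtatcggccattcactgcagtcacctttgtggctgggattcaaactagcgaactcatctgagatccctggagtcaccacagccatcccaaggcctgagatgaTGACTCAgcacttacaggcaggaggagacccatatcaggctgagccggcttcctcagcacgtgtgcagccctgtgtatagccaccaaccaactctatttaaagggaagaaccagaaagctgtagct
Intron near Junb, CTCF motif, chr8:84975481-84975683: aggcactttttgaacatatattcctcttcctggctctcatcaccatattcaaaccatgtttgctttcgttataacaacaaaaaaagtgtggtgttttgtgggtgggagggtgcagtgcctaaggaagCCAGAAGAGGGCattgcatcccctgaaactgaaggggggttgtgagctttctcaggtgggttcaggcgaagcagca
Between genes near Ppm1m, NR4A motif, chr9:106191456-106191651: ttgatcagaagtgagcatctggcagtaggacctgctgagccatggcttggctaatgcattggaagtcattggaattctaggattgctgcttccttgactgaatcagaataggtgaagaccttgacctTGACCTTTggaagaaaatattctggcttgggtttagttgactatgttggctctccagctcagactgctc
Intron near Gm10309, PU.1 motif, chr17:86447185-86447340: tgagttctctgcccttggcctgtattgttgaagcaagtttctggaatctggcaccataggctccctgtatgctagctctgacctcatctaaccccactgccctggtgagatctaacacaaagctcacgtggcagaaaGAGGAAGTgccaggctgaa

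The Fam222a region had signals of 1.92 in replicate 1 and 2.07 in replicate 2, and its match to the NR5A1 motif, CAAGGNCA, is on the minus strand. In replicate 1 the footprint overlapped only the last base of this match as printed. The region near Gm31510, with signals of 1.67 and 2.19, held a TGANTCA match, the palindrome bound by AP-1 (Fos and Jun proteins). The CTCF region, 3136 bp from a start site of Junb, had signals of 1.64 and 1.89. The NR4A region, with signals of 1.34 and 1.47, matched AAAGGTCA, the site of the NR4A orphan receptors, on the minus strand. An NR5A1 match, printed as tgacctTG, overlaps the NR4A match and lies in the same footprints, so these cannot be assigned to either motif. The PU.1 region was the weakest shown, with signals of 0.602 and 0.512, and matched GAGGAAGT, a site of the myeloid factor PU.1. Its position under footprints of both pools was rare among weak regions, as the counts further on show.

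In signal, weak regions sat at the low end but did not form a separate class. The authors deposited a peak signal without naming its scale. In replicate 1 it ran from 0.0817 to 1.92 (median 0.446) over weak regions, and in replicate 2 from 0.0879 to 2.28 (median 0.496). Clear regions had medians of 1.15 and 1.51. The distributions overlapped: 1.29% of weak regions in replicate 1 and 0.726% in replicate 2 exceeded the clear median, while 6.23% and 4.77% of clear regions fell below the weak median. Within the weak set the pools ranked regions alike (Spearman's rho 0.888 across 13218 regions, which are not independent replicates and were all required to have a peak in both pools). Replicate 2 was higher by a median of 0.12 on the log2 scale (SD 0.33 across regions), against 0.37 (SD 0.32) for clear regions.

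**Figure D1:**
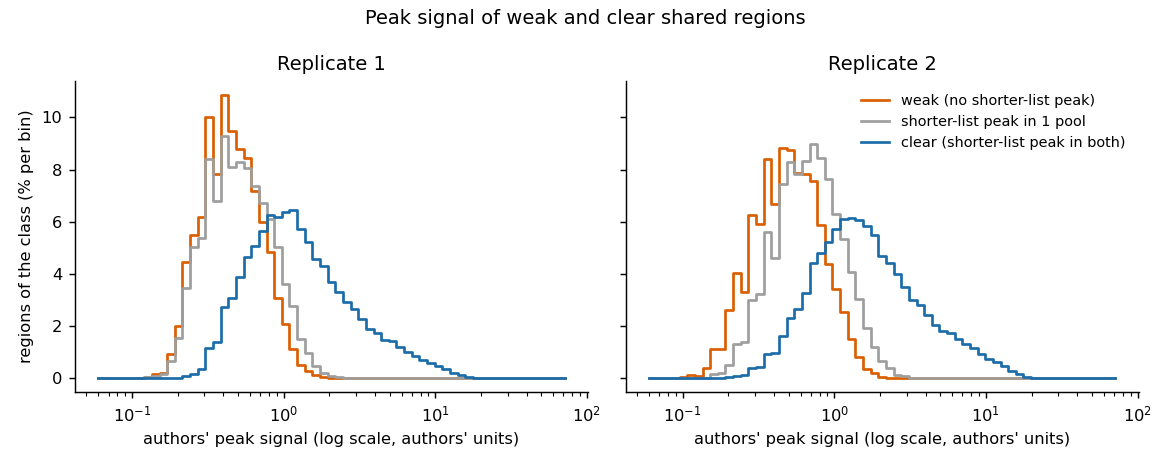
Distribution of the authors' peak signal (x axis, log scale, authors' units) as the percentage of regions per bin (y axis) for weak, intermediate and clear shared regions, 1 panel per pool. Weak regions peak at the low end with medians of 0.446 and 0.496 and overlap the lower part of the clear distribution, whose medians are 1.15 and 1.51.

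Weak and clear regions overlapped less in the false discovery rate (FDR) that the authors gave to the rate of cleavage. The median of the lowest FDR inside a weak region was 0.00731 (replicate 1) and 0.0045 (replicate 2), against 4.62e-09 and 3.62e-12 in clear regions. All clear regions reached an FDR of 0.001 or lower in both pools, whereas 1201 weak regions (9.09%) did in replicate 1 and 1820 (13.8%) in replicate 2. At the edge of the rule, the 2 clear regions of lowest signal rank had signals of 0.104 and 0.440 (intron of Hao2) and of 0.126 and 0.104 (chromosome Y), below the weak medians. The 3 weakest members, on chromosomes 12, 2 and X, had signals of 0.171 and 0.0879, 0.0817 and 0.120, and 0.0817 and 0.152, and none held a footprint. Weak peaks were also narrow, with a median own-peak width of 131 bp in replicate 1 and 158 bp in replicate 2 against 240 and 220 bp for clear peaks.

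Of the 5 strongest weak regions, 4 lay close to a region with a shorter-list peak. Besides the Fam222a and Gm31510 regions shown above, the 5 included chr15:103009401-103009580 (signals 1.61 and 2.28), 82 bp upstream of a start site of Hoxc6, a homeobox gene of body-axis patterning. The next, chr11:96311197-96311344 (1.60 and 2.20), lay between genes near Hoxb5os, an antisense RNA of the HoxB cluster, and held no footprint in either pool. The last, chr11:117081268-117081539 (1.61 and 2.01), lay near the microRNA gene Mir6516. All 5 but the Fam222a region, which was 3028 bp away, were within 365 bp of a region with a shorter-list peak. Hoxc6 is not counted among genes with only weak promoter regions, because a shorter-list peak touched its promoter window elsewhere.

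Most weak regions lay within 10 kb of a region with a shorter-list peak. Such a region need not have the higher signal. Of shared regions with a shorter-list peak in 1 pool only, 41.9% in replicate 1 and 28.5% in replicate 2 fell below the weak median. The same distance was not measured for clear regions or other positions. The median distance to the nearest region with a shorter-list peak of either pool was 3740 bp. It was within 1 kb for 3707 weak regions (28.0%) and within 10 kb for 72.4%. The 2406 weak regions less than 500 bp from such a region had median signals of 0.483 and 0.556, and 39.2% of them were at promoters. Between 1 and 5 kb away, 3789 regions had signals of 0.513 and 0.568 and a promoter share of 7.39%. The 163 regions over 100 kb away were the faintest, with medians of 0.216 and 0.200. Of them, 55.8% in replicate 1 and 24.5% in replicate 2 held a footprint of that pool anywhere in the merged region. Signal and footprints thus fell together in the most isolated members, while promoter location was concentrated in the members closest to regions with a shorter-list peak.

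Weak regions were mostly distal. By midpoint, 2009 (15.2%, Wilson 95% interval 14.6 to 15.8) lay within 1 kb of an annotated transcription start site (TSS), 679 (5.14%) in exons, 6321 (47.8%) in introns and 4209 (31.8%) between genes. Clear regions were at promoters in 29.8%, in exons in 3.69%, in introns in 37.0% and between genes in 29.5%. The promoter share measured from each pool's own strongest peak was 15.2% in both pools (15.2 ± 0.016, SD, n = 2) for weak and 29.8% ± 0.019 for clear regions, and since both pools describe the same regions this SD covers only where the peak was placed. Regions with a shorter-list peak in 1 pool, at 15.9%, resembled weak regions in this respect. The median distance to a TSS was 10330 bp for weak and 7117 bp for clear regions. Of weak regions, 3.91% lay more than 100 kb from any TSS, against 3.37% of clear regions.

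**Figure D2:**
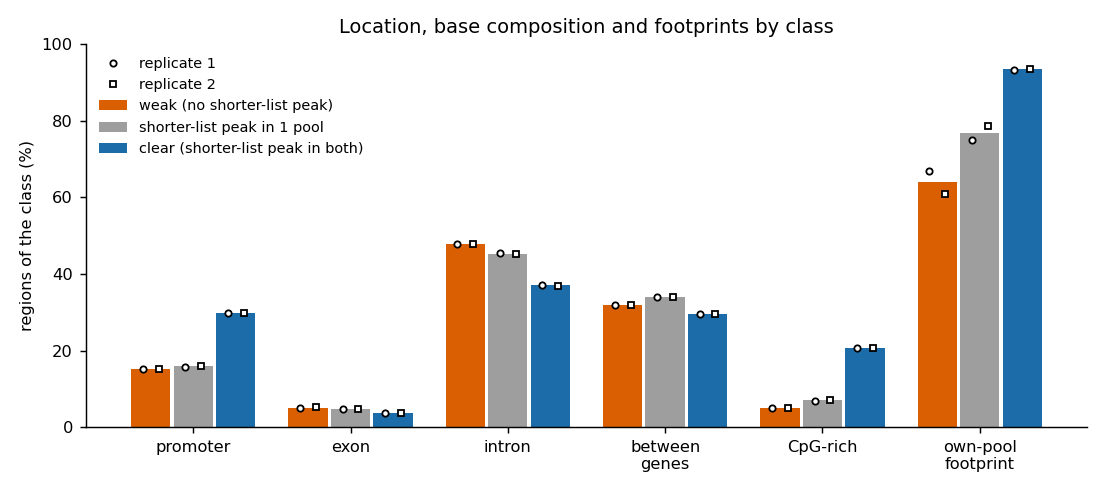
Share of regions (y axis, %) by location, CpG-rich sequence and overlap with a footprint of the same pool, for weak, intermediate and clear regions. Bars are means over the 2 pools, circles replicate 1 and squares replicate 2. Weak regions have a promoter share of 15.2% against 29.8% and a CpG-rich share of 5.13% against 20.7% in clear regions.

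The weak promoter regions differed from clear ones in base composition, position and gene type. CpG-rich sequence (75 bp either side of the midpoint, GC of at least 0.55, observed to expected CpG of at least 0.6) made up 22.7% and 23.7% of weak promoter regions in the 2 pools (23.2% ± 0.66, SD, n = 2) against 60.3% and 60.7% of clear ones (60.5% ± 0.276). Their midpoints sat within 200 bp of the TSS in 25.9%, compared with 64.1% of clear promoter regions. Instead, 46.4% lay more than 200 bp downstream and 27.7% more than 200 bp upstream, against 20.9% and 15.0%. The nearest TSS belonged to a protein-coding gene in 71.7% against 83.3%, to a lincRNA in 7.57% against 4.91%, and to a processed pseudogene in 3.14% against 1.36%. Promoter regions with a shorter-list peak in 1 pool only lay in between. Of these, 32.6% were within 200 bp and 43.9% over 200 bp downstream of the TSS. Protein-coding genes were nearest in 73.5%, lincRNAs in 6.88% and processed pseudogenes in 3.01%. These traits were not compared at equal signal. Most genes with a weak promoter region had a shorter-list peak as well. Of 1634 protein-coding genes with a weak region in the promoter window (1 kb either side of a TSS), 1311 (80.2%) also had a shorter-list peak there. This is also common over all 21911 protein-coding genes. Of them, 12422 (56.7%) had a clear region in the window. A further 779 and 288 had only a shorter-list peak of 1 pool, in a shared or an unshared region.

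Location was also compared at equal signal. When weak and clear regions of the same signal were set side by side, with both pools between 0.5 and 0.7, the promoter share was 15.9% of 1478 weak and 14.2% of 2323 clear regions. Between 0.7 and 1 it was 18.8% of 946 and 17.2% of 3614, and between 0.3 and 0.5 it was 13.9% of 3206 and 10.6% of 2011. In none of these 3 ranges was the promoter share of weak regions below that of clear regions. Width still differed, with medians of 190 bp for weak and 260 bp for clear regions between 0.5 and 0.7. These signal ranges were chosen after the values were seen.

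Footprints were sparser in weak regions. A footprint of the same pool overlapped the pool's own peak in 67.0% of weak regions in replicate 1 and 60.8% in replicate 2 (63.9% ± 4.35, SD, n = 2), against 93.2% and 93.6% of clear regions (93.4% ± 0.258). Both pools of the weak set lay below both clear values, and replicate 1 was the higher of them. Regions with a shorter-list peak in 1 pool only lay in between, at 75.1% and 78.6%. Weak peaks held 1.05 and 0.990 footprints on average, clear peaks 3.01 and 3.19. Per kb of peak the counts were 7.51 and 6.06 against 11.9 and 12.7, so weak peaks also held fewer per length. Footprints of both pools were found in 6085 weak regions (46.0%), of either pool in 11326 (85.7%), and of neither in 1892 (14.3%), while 90.5% of clear regions had both. At a signal of 0.5 to 0.7 in both pools, a footprint of the pool overlapped 77.3% and 74.2% of weak against 90.3% and 86.6% of clear regions. These shares are over the whole merged region and not over the pool's own peak, so they cannot be set against those above. Footprint detection depends on the number of cuts in a region, which the files do not give, and its part in this difference was not tested.

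Few protein-coding genes had weak regions and no shorter-list peak at their promoters. Of 21911 genes, 323 (1.47%) had promoter windows with weak regions and no shorter-list peak, 12422 (56.7%) had a clear region, and 7386 (33.7%) had no peak of either longer list. Most genes have no weak region there: the 323 were among the 1634 that did, of which 1311 also had a shorter-list peak. The median signal at the 339 weak regions of these 323 genes was 0.446 and 0.480, against 0.446 and 0.496 over all weak regions. CpG-rich sequence was present in 38.4% and a footprint of either pool in 87.0%. Of 948 genes on the X chromosome, 13 were weak-only.

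Among the 22 gene lists of adrenal cell types, other organs and general programs, 5 were clear throughout. The lists for cholesterol synthesis (19 genes), circadian clock (13), housekeeping (12), glucocorticoid response (10) and immediate early genes (10) had a clear region at the promoter of every member. Steroidogenesis had 16 clear and 0 weak-only of 20, with Por, the electron donor of microsomal P450 enzymes, at 14.4 and 16.3. Weak-only promoters were found in 9 of the 22 lists: 5 of 15 macrophage genes, 2 of 28 chromaffin cell genes, 2 of 17 of the zona glomerulosa and capsule, 2 of 15 endothelial, 2 of 12 fibroblast and 2 of 10 smooth muscle and pericyte genes. Hepatocytes (1 of 12), forebrain neurons (1 of 11) and developmental regulators (1 of 56) had 1 each. The lists for lymphocytes, adipocytes, erythroid cells, Schwann and sustentacular cells, kidney, skeletal muscle and spermatogenesis had none. Against 1.47% of all genes, the macrophage share of 33.3% is the highest of the 22, but it rests on 5 genes of a list chosen with results known, and was not tested.

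**Figure D3:**
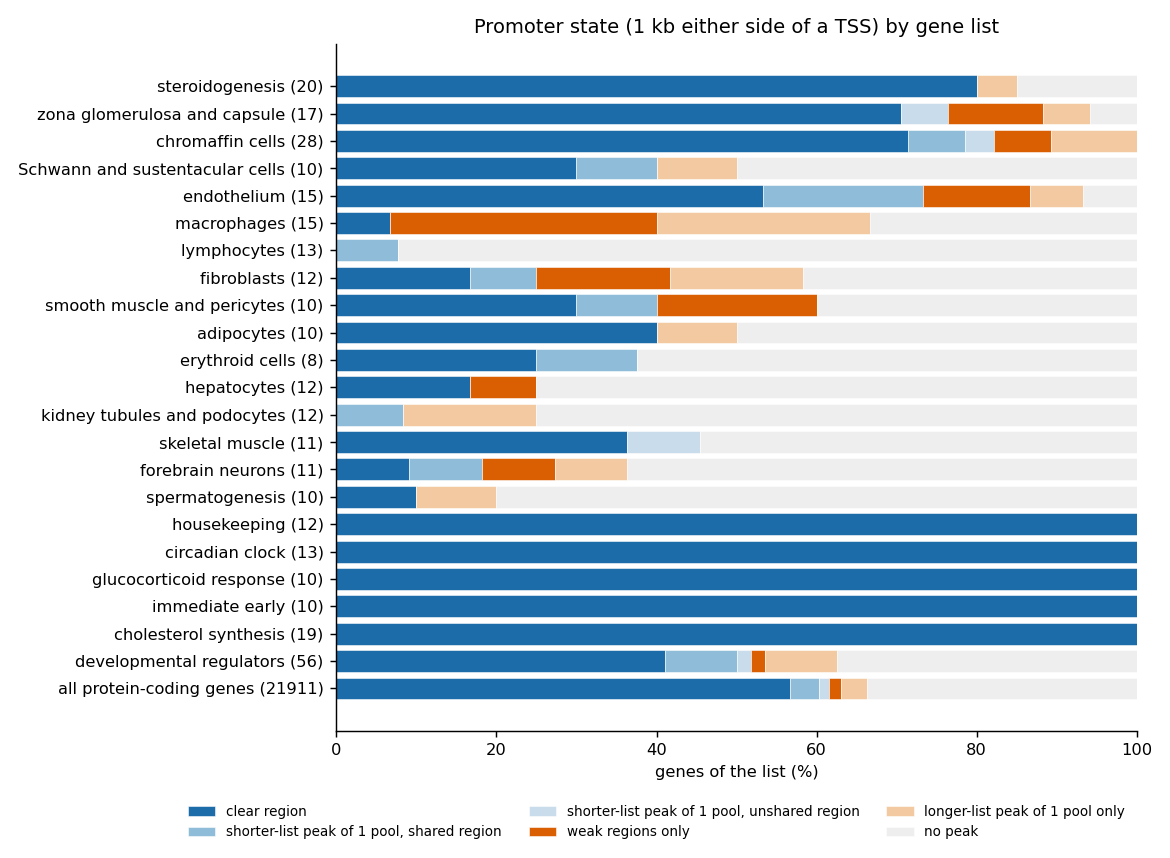
Promoter state of the genes in each list (y axis, number of genes in parentheses) as a percentage of the list (x axis). Colours give the strongest state found within 1 kb of a TSS, and the bottom bar is all 21911 protein-coding genes; the orange weak-only share is 33.3% for macrophages and 1.47% for all genes.

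Most macrophage genes with a shared promoter region had a weak one. Cd68, a lysosomal glycoprotein used as a macrophage marker, had signals of 1.14 and 1.26 in a region 99 bp upstream of its TSS, the highest of all weak-only members of the lists. C1qb and C1qa, subunits of complement C1q made by tissue macrophages, had 0.624 and 0.512, and 0.609 and 0.512, both within 65 bp of the TSS. Mrc1, the mannose receptor of resident macrophages, had 0.424 and 0.288, and Lyz2, lysozyme of myeloid cells, 0.357 and 0.280. In the last 4 genes replicate 1 was above replicate 2, opposite to the median of weak regions, and in Cd68 replicate 2 was higher. The only clear member of the list was Cd14, the lipopolysaccharide co-receptor, at 1.05 and 1.29, which overlaps the values of Cd68. Of the other 9 members, 4 had a longer-list peak of 1 pool only and 5 had none.

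Other vascular and stromal genes showed weak-only promoters beside clear ones of the same list. Plvap, the diaphragm protein of fenestrated capillaries, had signals of 0.721 and 0.839, and Sox17, an endothelial transcription factor, 0.334 and 0.416, while the clear endothelial receptor Tie1 had 1.902 and 1.86. Col1a2, a chain of type I collagen, had 0.320 and 0.320, and Twist1, a mesenchymal transcription factor, 0.364 and 0.432. Its partner chain Col1a1 was clear at 1.51 and 2.60. The mural cell genes Pdgfrb, the receptor for platelet-derived growth factor B, and Rgs5, a regulator of G-protein signalling, had 0.416 and 0.456, and 0.357 and 0.312. Tagln, a clear smooth muscle gene, had 1.57 and 1.68. All 6 weak-only regions lay below the clear member given for their list in both pools. Those clear members were picked for the highest signal of their list, so this order follows from the choice. The midpoints of all but Twist1 (343 bp downstream) were within 110 bp of a TSS.

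The 2 promoter sequences below show the strongest weak-only promoters of macrophages and endothelium, which lie wholly upstream of the TSS. They are plus-strand reference sequence of mm10, while both genes run on the minus strand, and capitals mark bases under a footprint of either pool.

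Cd68 promoter, chr11:69666154-69666349: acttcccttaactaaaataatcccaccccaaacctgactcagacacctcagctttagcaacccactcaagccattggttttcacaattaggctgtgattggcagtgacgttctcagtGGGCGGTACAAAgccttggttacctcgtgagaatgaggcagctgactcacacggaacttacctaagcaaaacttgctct
Plvap promoter, chr8:71511804-71511920: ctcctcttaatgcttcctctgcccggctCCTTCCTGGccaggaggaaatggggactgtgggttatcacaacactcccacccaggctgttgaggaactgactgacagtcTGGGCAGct

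The Cd68 region held 12 bases of footprint in replicate 1 and 0 in replicate 2, together with matches to AP-1, to the E-box CAGCTG and to the NFY site CCAATC. The Plvap region held 0 footprint bases in replicate 1 and 16 in replicate 2 and matched none of the 27 motifs searched. In neither promoter did the footprints of the pools coincide.

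Genes of the gland itself with weak-only promoters were few and included secretory genes of the medulla. Ddc, which decarboxylates L-DOPA to dopamine in catecholamine synthesis, had signals of 0.409 and 0.408 in a region 29 bp upstream of its TSS with 1 footprint in each pool. Penk, the precursor of enkephalin peptides, had 0.245 and 0.312 and 2 footprints in each pool, in a region with 76.2% GC. Slc18a1, the vesicular monoamine transporter of chromaffin cells, was clear at 5.61 and 8.59. Shh, the hedgehog ligand of capsule-adjacent cortical progenitors, had 0.684 and 0.632, though the TSS nearest to that region is that of 9530036O11Rik. Rspo3, the R-spondin that the capsule secretes to sustain WNT signalling in the outer cortex, had 0.401 and 0.400 in a region 712 bp wide, well above the median width of 188 bp. In each of Ddc, Shh and Rspo3 the pools differed by less than 10% of the signal, and Penk was higher in replicate 2.

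Weak-only genes outside the adrenal lists were scattered. Cyp3a11, a hepatic drug-metabolising P450, had signals of 0.268 and 0.272 in a region 797 bp upstream. Pax3, a neural crest transcription factor, had 0.379 and 0.400, and Camk2a, a neuronal kinase, 0.461 and 0.424 in the stronger of its 2 weak regions, 825 bp upstream. Over all genes, the weak-only promoters of highest mean signal with named symbols were Spocd1 (1.501 and 1.89), Pcdhgc4 (1.14 and 1.64), a protocadherin, and Wwc1 (1.15 and 1.57), a regulator of the Hippo pathway. They were followed by Lmnb2 (1.29 and 1.43), which encodes lamin B2, Smarcd3 (1.10 and 1.61), a subunit of SWI/SNF remodelling complexes, and Lbx2 (1.23 and 1.41). The last 4 were Chit1 (1.03 and 1.49), a chitinase of macrophages, Rims4 (1.11 and 1.40), BC034090 (1.17 and 1.33) and Fam92b (1.26 and 1.16). In 9 of these 10 genes replicate 2 was the higher pool. The Lmnb2, Wwc1 and Rims4 regions are GC-rich (62.3%, 72.8% and 82.8%), whereas Chit1 has 49.0%.

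Away from promoters, 11209 weak regions lay over 1 kb from every TSS, which was 15.4% of the 72601 distal shared regions. Counting each distal region for every gene with a TSS within 50 kb, 9065 genes (41.4%) had at least 1 weak distal region and weak regions made up 15.7% of all gene-region pairs. The lists ranged from 7.84% (4 of 51 pairs) for adipocytes to 27.7% (13 of 47) for spermatogenesis, with 10.4% (14 of 135) for the circadian clock, 10.7% (21 of 197) for steroidogenesis, 16.7% (11 of 66) for macrophages and 21.6% (21 of 97) for endothelium. Among single genes, the transcription factor gene Tcf4 had 10 weak and 10 clear distal regions. Fgfr2, a receptor for fibroblast growth factors, had 9 weak and 5 clear distal regions, and Tns1, which links integrins to actin, 9 weak and 15 clear. Of list members, Arntl, the core clock factor BMAL1, and Sgk1, a glucocorticoid-induced kinase, had 5 weak regions each beside 10 and 8 clear ones. These genes were picked after their counts were seen, from those with the highest counts.

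Distal weak regions held NR5A1, AP-1 and CTCF motifs at shares above their flanks and below those of clear regions. Of 27 motifs searched on either strand, 75 bp to each side of a region's midpoint, 12 were at least 1.5 times as frequent in weak regions as in windows of the same length placed 1 kb away, and 13 were in clear regions. NR5A1 (CAAGGNCA) was found in 1967 of 11209 weak distal regions, 17.5% (Wilson 95% interval 16.9 to 18.3), against 4.07% of flanking windows, 20.6% of clear regions and 19.3% of all distal shared regions. By each pool's own midpoint the weak share was 17.6% and 17.4% (17.5% ± 0.186, SD, n = 2). AP-1 (TGANTCA) was found in 17.6% of weak regions, 25.4% of clear regions, 4.23% of the flanks of weak regions and 23.2% of all. The CTCF core motif was found in 5.55%, 9.79%, 1.03% and 9.06% in the same order. Of these 3 motifs NR5A1 was closest to parity, at 0.852 times its clear share, while the weak shares of AP-1 and CTCF were 0.695 and 0.567 times the clear ones. Distal regions with a shorter-list peak in 1 pool only had 17.2% for NR5A1, 21.2% for AP-1 and 9.48% for CTCF. A lower NR5A1 share than in clear regions was thus not particular to weak regions, while the CTCF share of that class was near the clear one.

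Other motifs lay on either side of parity. The cAMP response element (TGACGTCA), the target of CREB downstream of corticotropin signalling, was in 0.366% of weak and 0.582% of clear regions, with 0.532% in all. NR4A (AAAGGTCA) was in 2.36% against 2.72%, with 2.62% in all, and the glucocorticoid response element in 0.883% against 1.22%, with 1.07% in all. Shares of the E-box CAGCTG, 13.3% against 13.5%, of the ETS site CCGGAAG, 1.23% against 1.19%, and of AGATAAG, the site of GATA factors, 3.58% against 3.42%, were near parity in weak and clear regions. The all-region shares of these 3 were 13.3%, 1.18% and 3.41%. Of the 27, 7 motifs were at most 0.8 times as frequent in weak as in clear regions by the midpoints of both pools: NRF1, CTCF, SP/KLF, the cAMP response element, NFI, AP-1 and the glucocorticoid response element. On the other side, 4 motifs were at least 1.2 times as frequent in both pools: PU.1, IRF, PHOX2 and REST. The midpoints of both pools describe the same merged regions, so their agreement is not replication. Counts were small for NRF1 (4 weak regions), NFI (9), PHOX2 (19) and REST (8). For each of these the Wilson intervals of weak and clear regions overlapped. Such intervals cover counting error only and treat regions as independent, so whether they overlap is not a test. PU.1 (GAGGAAGT) was in 1.95% of weak (1.71 to 2.23) and 1.41% of clear regions (1.30 to 1.52), with 1.01% in the flanks of both and 1.51% in all. In weak regions PU.1 stood at 1.94 times its flanks, IRF at 0.948 times and PHOX2 at 0.838 times, while REST matched 8 weak regions and no flank.

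**Figure D4:**
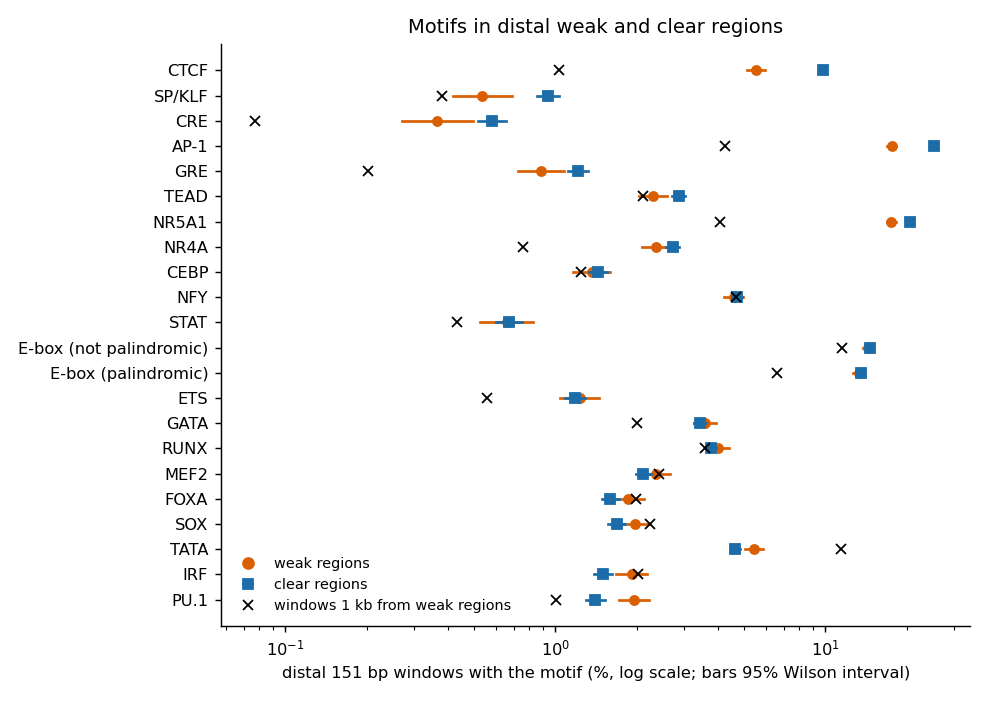
Share of distal windows of 75 bp either side of the midpoint holding each motif (x axis, %, log scale) in weak regions (circles), clear regions (squares) and windows 1 kb from weak regions (crosses), for motifs in at least 40 weak regions; bars are 95% Wilson intervals for counting error. Motifs are ordered by the ratio of weak to clear, from CTCF at 0.567 to PU.1 at 1.39.

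At equal signal the motifs parted. With both pools between 0.5 and 0.7, NR5A1 was in 19.5% of 1243 weak and 19.2% of 1994 clear distal regions, and AP-1 in 17.6% and 17.7%. CTCF was in 4.83% of weak against 8.38% of clear regions in that range, in 5.21% against 7.42% between 0.7 and 1, and in 5% against 6.73% between 0.3 and 0.5. The lower CTCF share of weak regions was thus seen in all 3 ranges, while that of NR5A1 and AP-1 was absent from the middle one. Between 0.3 and 0.5, NR5A1 was in 16.6% against 19.1% and AP-1 in 16.1% against 19.9%, and between 0.7 and 1 in 20.8% against 20.9% and in 15.1% against 19.3%. PU.1 was higher in weak regions in the lower ranges (2.21% against 1.34%, 2.57% against 1.71%) and lower between 0.7 and 1 (1.17% against 1.84%). The ETS site, near parity over all distal regions, was more frequent in weak regions in all 3 ranges. From the lowest range up, its shares were 1.52% against 0.556%, 1.69% against 1.05% and 2.08% against 1.07%. The ranges held, in that order, 2760, 1243 and 768 weak and 1797, 1994 and 2992 clear distal regions. The PU.1 and ETS shares therefore rest on few matches. These ranges were chosen after the values were seen, and the differences were not tested.

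Matches to a motif were under a footprint less often in weak regions than in clear ones, for each of the motifs in at least 40 weak regions. For CTCF, 47.9% of 622 weak distal regions with the motif had it under a footprint in replicate 1 and 49.5% in replicate 2, against 84.7% and 90.7% of 4292 clear ones. For NR5A1 the shares were 19.1% and 19.6% of 1967 weak regions against 44.7% and 50.2% of 9034 clear regions. For AP-1 they were 21.9% and 26.1% against 52.6% and 63.6%. CTCF and the cAMP response element, at 53.7% and 39.0% of 41 weak regions, had the highest shares of the motifs drawn. Under footprints of both pools at once were 33.3% of weak CTCF, 7.58% of NR5A1 and 9.17% of AP-1 matches, compared with 81.9%, 32.7% and 41.9% in clear regions. Regions with a shorter-list peak in 1 pool only lay in between, at 46.4%, 11.9% and 16.6%.

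**Figure D5:**
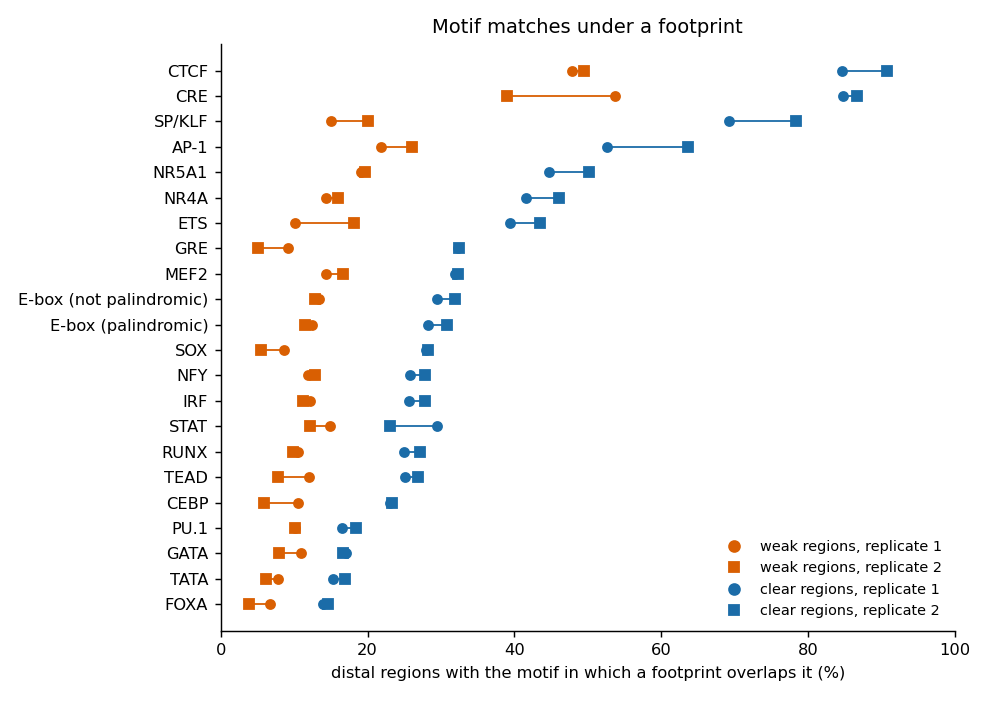
Share of distal regions with a motif in which a footprint of the pool overlaps it (x axis, %), by motif, for weak and clear regions; circles are replicate 1 and squares replicate 2. Weak shares lie below clear ones for all motifs shown, for example 47.9% and 49.5% against 84.7% and 90.7% for CTCF.

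Other motifs had lower footprint shares. Of the motifs in at least 40 weak regions, FOXA had the lowest, at 6.73% and 3.85% of 208 weak regions against 14.0% and 14.6% of 701 clear ones. PU.1 matches were under a footprint in 10.0% of 219 weak regions in both pools, and in 16.5% and 18.5% of 617 clear regions. Only 4 weak regions, 1.83%, had a PU.1 match under footprints of both pools. The region shown above is the strongest of them by the rule given there. Glucocorticoid response elements were under a footprint in 9.09% and 5.05% of 99 weak regions, against 32.3% and 32.5% of 533 clear regions. The SP/KLF site GGGGCGGGG, a promoter-type element found in 0.535% of weak and 0.940% of clear distal regions, was under a footprint in 15% and 20% of 60 weak regions against 69.2% and 78.4% of 412 clear ones. The gap between the classes was larger than the gap between pools in each of these motifs.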

How the data were processed

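Per the readme texts and labels, peaks were called per pool from filtered mm10 alignments of 1 library, and the authors deposited a signal for each peak, whose scale is not stated. The deposited score, p-value and q-value columns of the peak lists hold constants. The authors' footprint value was 0.01 throughout, and their deposited table of false discovery rates, a p-value adjusted for multiple tests, lists intervals under 0.05. The sources used here name no aligner or caller. CTCF, NFI, GRE, MEF2, PHOX2, NRF1, REST and IRF motifs were matched as longer consensus sequences and are given by name.

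Regions were merged and classed with Python 3.11.15, numpy 2.4.6 and pandas 2.3.3. Signal was that of each pool's strongest peak in a region. Width, footprints and motifs were read from the merged region or, where a pool's own peak or midpoint is named, from that pool's strongest peak. Genes came from GENCODE M21 basic (77161 start sites on 21 chromosomes) and sequence from GRCm38.p6. The 22 gene lists (332 genes, all matched) and the members were chosen with earlier results of these data known. Named regions and genes were the 5 strongest and 3 weakest by the smaller signal rank of the 2 pools, the best-signal distal example per motif with a footprint in both pools (at most 300 bp), all weak-only list genes, and the 10 strongest weak-only promoters. With 1 group of 2 pools no test was made. Wilson intervals and SDs cover counting error and these pools only, and the depth is unknown. Motif matching and overlaps were tested on simulated data. Alternatives are in the closing section.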

Additional observations from a re-analysis of the deposited data

How the results depend on the processing

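Counts and shares changed with the rules that define the regions, some of them only slightly. Requiring 50% reciprocal overlap of the pools' peaks left 8595 regions, a promoter share of 12.5%, a CpG-rich share of 4.10%, shares of 18.2% for NR5A1, 18.2% for AP-1 and 6.78% for CTCF, and 185 weak-only genes. Regions over 1 kb from shorter-list peaks had a promoter share of 7.65%, a CpG-rich share of 2.89%, and 18.2%, 18.4% and 6.21% for the 3 motifs. Regions at or above the weak median signal in both pools numbered 5700, with 17.8% at promoters, 93.9% with a footprint of either pool, 6.86% CpG-rich, 18.9%, 18.02% and 6.36% for the motifs, and 138 weak-only genes. The range of 0.5 to 0.7 in signal, chosen after seeing the data, held 1478 regions, 15.9% at promoters, 92.4% with a footprint, 5.62% CpG-rich, 19.5% with NR5A1, 4.83% with CTCF, and 34 weak-only genes. Promoters of 500 bp gave 7.78% and of 2 kb 22.6%, with motif shares of 16.9%, 16.9% and 5.42%, and 17.9%, 17.9% and 5.72%. A motif window of 50 bp either side gave 14.1%, 13.7% and 4.98%. Leaving repeats out gave 15.3% at promoters, 5.36% CpG-rich, and 17.0%, 17.4% and 5.05%. Requiring a footprint of both pools gave 46.0%. Without replicate 1 or replicate 2, the regions are those of 1 pool's lists and the values were 46950 to 54115 regions, 15.5% to 17.6% at promoters, 55.3% to 74.6% with a footprint, 4.84% to 6.52% CpG-rich, 15.4% to 15.6% for NR5A1, 16.5% to 17.0% for AP-1, 5.04% to 6.17% for CTCF and 992 to 1197 weak-only genes. Of 78 recomputed values, 18 stayed within 1.5 times a main count or within 1 SD between the pools of a main share. Among these were counts of 9566 (over 1 kb from shorter-list peaks), 12861 (autosomes) and 12615 (repeats left out) against 13218 regions, and of 296 to 329 against 323 weak-only genes. The SD of the promoter, CpG-rich and motif shares covers only where peaks were placed in the same regions, and was 0.016 for promoters. Small changes, such as 15.3% against 15.2% at promoters without repeats, therefore fell outside it, so the tally does not measure how large the changes were. The causes were not tested. No paired analysis was possible because there is 1 group only. The 2 pools share a donor identifier, the signal scale and depth are unknown, and footprints cannot be separated from depth.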

Other observations

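Weak regions made up 12.7% to 14.8% of shared regions on each autosome and 14.2% on the X chromosome, and 7 of the 42 shared regions of the Y chromosome (16.7%). Per length, the X chromosome held 2.05 weak regions per Mb against 7.53 on chromosome 11. Repeat-masked sequence covered over 50% of 603 weak regions (4.56%), compared with 1.79% of clear regions and 3.68% of those with a shorter-list peak in 1 pool only. The weak region with the lowest false discovery rate, 7.83e-36 in replicate 1 and 0.000665 in replicate 2, was an intronic region of 222 bp on chromosome 10 with signals of 1.11 and 1.38, 6160 bp from the nearest region with a shorter-list peak. It was chosen after its values were seen, and 2 weak regions in replicate 1 and 3 in replicate 2 had a rate of 1e-06 or lower.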
